A study of Homo sapiens with 8 samples.

Results

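The mitochondrial ribosomal protein genes were taken as the symbols that start with MRPL or MRPS followed by a digit. Of the 13703 genes listed in either expression table, 78 met this rule, 49 of them MRPL genes of the large subunit and 29 MRPS genes of the small subunit. All 78 stood in the tables of both cell lines, and all 78 passed the filter on low values in both (1 FPKM or more in 2 or more libraries of that line). Polyadenylated RNA of human osteosarcoma cells was sequenced in 4 groups of 2 libraries: 143B sgNAT10, 143B NC, HOS sgNAT10 and HOS NC. HOS is an osteosarcoma line and 143B a ras-transformed derivative of it, whereas sgNAT10 names a guide against NAT10 and NC its control. NAT10 is an acetyltransferase that places N4-acetylcytidine on RNA, and the study asks what that modification does in osteosarcoma. The labels give neither the guide sequence, nor whether a group is 1 clone, nor whether its 2 libraries came from separate cultures, so that the spread behind each p-value may be technical.

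The mitochondrial ribosome translates the few messages encoded in mitochondrial DNA, all of them for membrane subunits of the respiratory chain and the ATP synthase. Its ribosomal RNAs are made inside the organelle, but every one of its proteins is encoded in the nucleus, made on cytosolic ribosomes and imported. The large subunit forms the peptide bond and holds the exit tunnel, and the small subunit reads the message. Some of these proteins descend from bacterial ribosomal proteins and others are particular to mitochondria. Mitochondrial messages themselves were not analysed here, since none of the 26 symbols searched was found in the tables.

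NAT10 stood at 9.05 and 7.19 FPKM in 143B sgNAT10 libraries, against 16.1 and 19.9 FPKM in 143B NC libraries. In HOS sgNAT10 libraries its level was 21.1 and 19.1 FPKM, against 14.9 and 16.2 FPKM in HOS NC libraries. The NAT10 RNA was thus lower in 143B sgNAT10 (log2 change -1.06, limma adjusted p = 0.026) and higher in HOS sgNAT10 (0.35, adjusted p = 0.0054). In HOS the level of NAT10 RNA thus goes against the label, no protein was measured, and HOS sgNAT10 below means only the libraries labelled so. The NAT10 gene lies at chr11:34105602-34147670 on the plus strand of GRCh38. The 143B call was lost without either sgNAT10 library (adjusted p = 0.109 without replicate 1 and 0.219 without replicate 2) and the HOS call without sgNAT10 replicate 1 (0.180). Median-ratio scaling of the libraries also ended both calls (adjusted p = 0.0609 in 143B and 0.259 in HOS), leaving out 143B NC replicate 2 gave 0.0640, and in HOS quantile normalization gave 0.0898 and the length and GC correction 0.0570.

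Summed over all listed genes, a library held 484793 to 798137 FPKM, and depth is unknown because the tables hold no counts. Correlations between the libraries of a group were 0.9843 for 143B sgNAT10, 0.9767 for 143B NC, 0.9972 for HOS sgNAT10 and 0.9948 for HOS NC, on the log2(FPKM + 1) scale across genes. Cytosolic ribosomal protein genes took 41.4 ± 0.90% of the listed FPKM in 143B sgNAT10 and 26.3 ± 1.12% in 143B NC, and 21.0 ± 0.48% in HOS sgNAT10 and 28.2 ± 0.24% in HOS NC (SD, n = 2 each); since FPKM is a share of the library, rescaling to the sum without ribosomal protein and MTRNR2L genes, an alternative added after seeing the data, is given beside the counts below. Of 8 mesenchymal markers, 6 were listed in 143B and 8 in HOS. Their summed FPKM ran from 531 to 836 in 143B sgNAT10, against 1437 to 1880 in 143B NC, and from 1822 to 1889 in HOS sgNAT10, against 1467 to 1658 in HOS NC. Of 15 markers of other cell types 7 were listed in each line, and their summed FPKM was 13.6 to 13.9 in 143B sgNAT10 and 9.40 to 9.66 in 143B NC, and 29.4 to 31.2 in HOS sgNAT10 and 27.1 to 29.7 in HOS NC. The leukocyte marker PTPRC and the T cell marker CD3E were listed in neither. In bulk RNA, fewer cells of a type and less RNA per cell cannot be told apart.

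The balance of rising and falling mitochondrial ribosomal protein genes differed between the 2 lines. In 143B, sgNAT10 libraries had more of them up than down: 19 of 78 rose and 12 fell, 24.4% and 15.4%, where 12.9% of all 11419 genes tested rose and 25.4% fell. In the HOS libraries labelled sgNAT10, 9 rose and 53 fell, 11.5% and 67.9%, where 45.5% of all 11957 genes rose and 23.0% fell. The median log2 change of the 78 genes was 0.20 in 143B, beside -0.25 over all genes, and -0.35 in HOS, beside 0.19 over all genes. The excess of rising members in 143B turned round when each library was rescaled to a common sum of FPKM (11 rose, 15 fell, median -0.14, beside 7.49% and 33.2% of all genes and a median of -0.54), while in HOS more members fell than rose under every scaling tried. With libraries rescaled to the sum without ribosomal protein and MTRNR2L genes, 20 rose and 11 fell in 143B and 10 rose and 51 fell in HOS. Of all genes 11.8% then rose and 23.0% fell in 143B, and 48.2% rose and 21.4% fell in HOS. The members' median stood above that of all genes in 143B by 0.31 to 0.53, and apart from it by -0.60 to -0.36 in HOS, over all settings. With a change of at least 2-fold besides the call, 12 members rose and 8 fell in 143B, where 9.6% of all genes rose and 20.4% fell that far, and none rose and 1 fell in HOS, where 4.93% rose and 0.828% fell. Libraries of the 2 labels did not overlap for 31 higher and 19 lower members in 143B (23.9% and 42.8% of all genes) and for 13 higher and 54 lower members in HOS (53.9% and 29.2%). Without sgNAT10 replicate 1 the members' median in 143B was 0.29, beside -0.12 over all genes. Without sgNAT10 replicate 2 it was 0.025, beside -0.36 over all genes. Fewer members, and a smaller share of all genes, were called in these fits. In HOS the members' median was -0.30 without sgNAT10 replicate 1, beside 0.18 over all genes. It was -0.40 without sgNAT10 replicate 2, beside 0.20, and -0.35 without NC replicate 2, beside 0.21. Fewer members, and a smaller share of all genes, were called higher without either sgNAT10 library, and more without NC replicate 2. With 1 spread estimated over all 8 libraries in place of the 4 of the line, 2 members rose and 14 fell in HOS, where 14.7% of all genes rose and 2.83% fell. The named HOS calls lost with it were those of MRPL1, MRPL13, MRPL19, MRPL23, MRPL47, MRPL54, MRPS2, MRPS6, MRPS12, MRPS14, MRPS16, MRPS27, MRPS30, MRPS36 and NAT10.

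**Figure D1:**
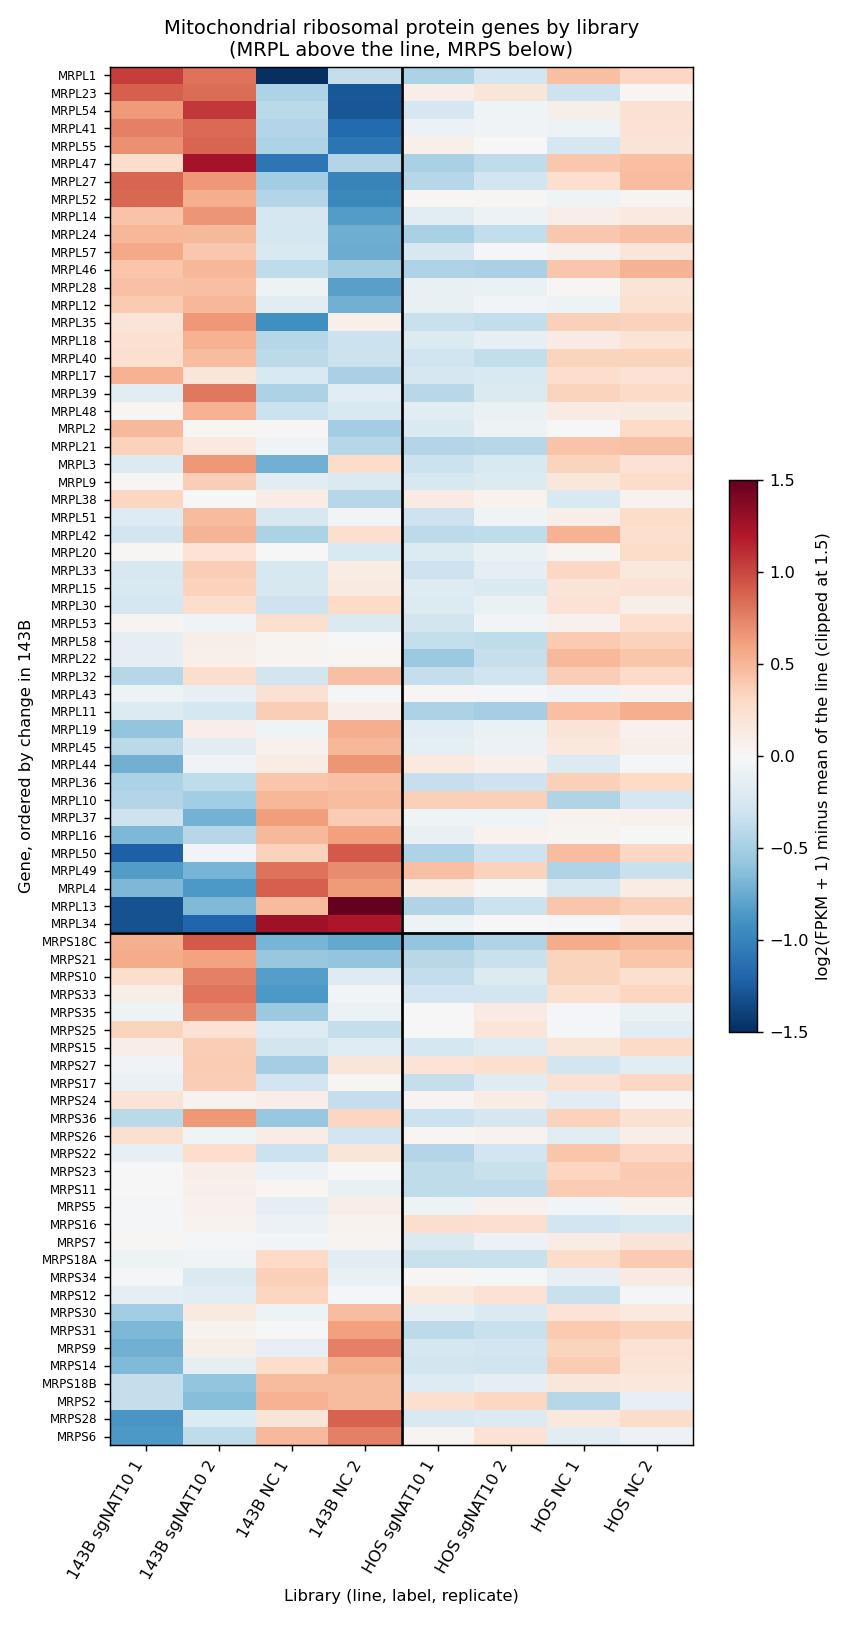
Heat map of the 78 mitochondrial ribosomal protein genes (rows, MRPL above the line and MRPS below, ordered by their change in 143B) in the 8 libraries (columns, sgNAT10 left of NC within each line); colour gives log2(FPKM + 1) minus the gene's mean in that line. The largest departures stand in 143B, where changes ran from -2.49 to 1.86, against -1.05 to 0.79 in HOS.

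**Figure D2:**
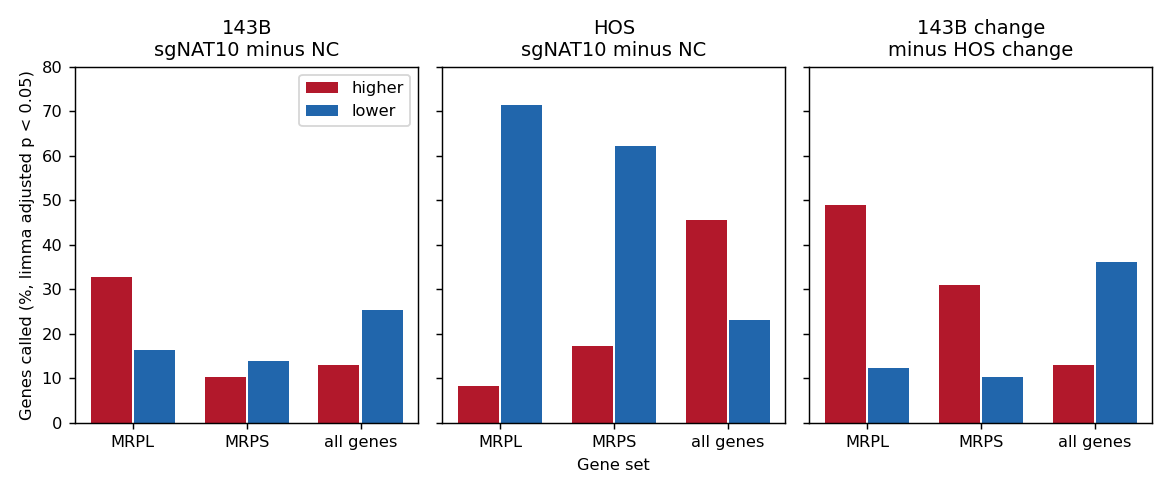
Bars give the percent of genes called higher and lower (limma adjusted p under 0.05) in sgNAT10, for MRPL genes, MRPS genes and all genes tested, in each line and for the difference between lines. Of the 78 members together 24.4% were higher and 15.4% lower in 143B, and 11.5% higher and 67.9% lower in HOS.

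The promoters of 4 members are shown as examples of genes that moved in opposite directions in the 2 lines. MRPS18C, MRPL27 and MRPL46 rose in 143B and fell in HOS, and MRPL49 did the opposite. Each is the 250 bases before the RefSeq start on GRCh38.p14, written 5′ to 3′ on the strand of the gene, at chr4:83455808-83456057 (plus) for MRPS18C, chr17:50373185-50373434 (minus) for MRPL27, chr15:88467389-88467638 (minus) for MRPL46 and chr11:65121933-65122182 (plus) for MRPL49. Capitals mark CCGGAAG, the core bound by ETS factors such as GABPA, long known as a regulator of nuclear genes for mitochondrial proteins.
MRPS18C: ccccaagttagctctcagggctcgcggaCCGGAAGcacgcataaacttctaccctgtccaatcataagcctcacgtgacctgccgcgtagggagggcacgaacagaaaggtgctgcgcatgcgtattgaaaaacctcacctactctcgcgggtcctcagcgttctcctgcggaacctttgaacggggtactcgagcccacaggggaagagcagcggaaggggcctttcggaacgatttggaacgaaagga
MRPL27: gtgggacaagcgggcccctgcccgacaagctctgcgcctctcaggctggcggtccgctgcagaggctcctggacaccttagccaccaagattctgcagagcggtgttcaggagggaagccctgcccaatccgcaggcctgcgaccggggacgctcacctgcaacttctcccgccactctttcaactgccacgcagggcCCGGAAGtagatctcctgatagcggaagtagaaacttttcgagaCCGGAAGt
MRPL46: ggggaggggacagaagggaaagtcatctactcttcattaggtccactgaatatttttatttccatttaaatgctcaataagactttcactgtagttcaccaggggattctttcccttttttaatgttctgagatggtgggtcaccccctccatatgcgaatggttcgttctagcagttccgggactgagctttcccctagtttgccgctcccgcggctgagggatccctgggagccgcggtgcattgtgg
MRPL49: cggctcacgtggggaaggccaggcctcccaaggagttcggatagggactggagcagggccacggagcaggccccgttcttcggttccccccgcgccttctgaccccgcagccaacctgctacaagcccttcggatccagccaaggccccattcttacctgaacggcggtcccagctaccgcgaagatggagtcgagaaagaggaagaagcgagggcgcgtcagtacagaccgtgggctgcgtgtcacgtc
The letters began 222 bases before the start in MRPS18C and 52 and 8 bases before it in MRPL27. MRPL46 held none, but the letters AAGATGGCG of the YY1 motif stood 8 bases after its start, outside the bases printed, and MRPL49 matched none of the motifs searched. Among the other members that rose in 143B and fell in HOS, MRPL1, MRPL18 and MRPL24 matched none, and the rest matched a motif. MRPS2 and MRPS6, which moved like MRPL49, matched none. On both strands of a window of 300 bases, from 250 before to 50 after the start, CCGGAAG was found in 29 of the 69 members with a RefSeq promoter (42.0%), against 21.0% of the promoters of tested genes and 10.7% of all 27305 promoters. AAGATGGCG was found in 13 members (18.8%, against 4.44% of tested genes and 1.85% of all promoters). The motif of the factor NRF1, GCGC and TGCGC with any 1 base between them, was found in 8 members (11.6%, against 12.8% and 6.28%). By direction, CCGGAAG stood in 9 of the 18 promoters of members that rose in 143B, 1 of 9 of those that fell and 19 of 42 of those not called. In HOS it stood in 2 of 7 of those that rose, 21 of 46 of those that fell and 6 of 16 of those not called. A match is a description of the letters and not of binding.

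Among the large subunit genes that rose in 143B, MRPL1, the homologue of the bacterial protein of the stalk where the spent tRNA leaves, rose most. It stood at 33.8 and 28.9 FPKM in 143B sgNAT10, against 5.0 and 12.2 FPKM in 143B NC. In HOS its level was 22.5 and 25.7 FPKM in sgNAT10, against 43.7 and 39.4 FPKM in NC. The groups did not overlap in either line, with sgNAT10 higher in 143B and lower in HOS. The log2 change was 1.86 ± 0.39 in 143B (SE, limma adjusted p = 0.0071) and -0.76 ± 0.10 in HOS (adjusted p = 5.2e-06). MRPL1 lies at chr4:77862520-77952790 on GRCh38.

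MRPL23, whose bacterial homologue lines the mouth of the exit tunnel, was the most abundant member in 143B sgNAT10. It stood at 2133 and 2033 FPKM in 143B sgNAT10, against 826 and 473 FPKM in 143B NC, and at 97.0 and 102 FPKM in HOS sgNAT10, against 72.3 and 92.0 FPKM in HOS NC. It was the one member of 78 that rose in both lines, where 3.39% of all genes did, by 1.73 ± 0.34 in 143B (adjusted p = 0.0054) and by 0.28 ± 0.10 in HOS (adjusted p = 0.022) on the log2 scale. The HOS call did not hold under median-ratio scaling (adjusted p = 0.634), with the length and GC correction (0.936), or without sgNAT10 replicate 1, sgNAT10 replicate 2 or NC replicate 1 (0.0740, 0.170 and 0.163). The gene shares exon sequence with the antisense transcript MRPL23-AS1, and the strand setting of the counting was not given in the sources used here, so their reads may be mixed.

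MRPL41, a mitochondria-specific protein, and MRPL12, which forms the flexible stalk that recruits translation factors, were also among the most abundant. MRPL41 stood at 1493 and 1593 FPKM in 143B sgNAT10, against 651 and 395 FPKM in 143B NC, a log2 change of 1.60 ± 0.32 (adjusted p = 0.0058). MRPL12 stood at 1221 and 1322 FPKM in 143B sgNAT10, against 831 and 566 FPKM in 143B NC, a log2 change of 0.89 ± 0.30 (adjusted p = 0.046). Both genes had their sgNAT10 libraries above their NC libraries in 143B, and neither was called in HOS. In HOS, MRPL41 stood at 142 and 145 FPKM in sgNAT10, against 144 and 176 FPKM in NC, and MRPL12 at 154 and 162 FPKM in sgNAT10, against 159 and 196 FPKM in NC. The 143B call of MRPL12 was lost under 3 of the rescalings (adjusted p = 0.115 to a common sum, 0.0752 by median ratio and 0.210 by quantiles). It was also lost without sgNAT10 replicate 1, sgNAT10 replicate 2 or NC replicate 2 (0.208, 0.272 and 0.151).

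MRPL54, a mitochondria-specific protein, and MRPL55, the counterpart of a bacterial subunit, rose in 143B as well. MRPL54 stood at 368 and 493 FPKM in 143B sgNAT10, against 178 and 96.2 FPKM in 143B NC (log2 change 1.69 ± 0.33, adjusted p = 0.0053). MRPL55 stood at 316 and 359 FPKM in 143B sgNAT10, against 141 and 90.5 FPKM in 143B NC (log2 change 1.57 ± 0.28, adjusted p = 0.0039). In HOS only MRPL54 of this pair was called, at 31.2 and 35.4 FPKM in sgNAT10, against 39.7 and 43.6 FPKM in NC (log2 change -0.32 ± 0.10, adjusted p = 0.0087). That HOS call was lost after rescaling to a common sum (0.327) and without sgNAT10 replicate 1 (0.263). MRPL55 overlapped in HOS, at 43.6 and 41.3 FPKM in sgNAT10 and 34.5 and 47.3 FPKM in NC.

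MRPL47, the counterpart of bacterial L29, and MRPL27, which reaches toward the peptidyl transferase centre, rose in 143B and fell in HOS without overlap. MRPL47 stood at 49.4 and 98.2 FPKM in 143B sgNAT10, against 18.6 and 29.7 FPKM in 143B NC, and at 53.4 and 57.2 FPKM in HOS sgNAT10, against 99.8 and 103 FPKM in HOS NC. Its log2 change was 1.53 ± 0.37 in 143B (adjusted p = 0.012) and -0.86 ± 0.09 in HOS (adjusted p = 3.8e-07). The 143B call was lost without sgNAT10 replicate 2 (0.0704) and when rescaled to a common sum (0.0600). MRPL27 stood at 236 and 201 FPKM in 143B sgNAT10, against 89.4 and 63.6 FPKM in 143B NC, and at 70.7 and 78.4 FPKM in HOS sgNAT10, against 114 and 132 FPKM in HOS NC. Its log2 change was 1.52 ± 0.26 in 143B (adjusted p = 0.0035) and -0.71 ± 0.09 in HOS (adjusted p = 6e-06).

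Fewer large subunit genes fell in 143B, but MRPL34 had the largest change of any member. MRPL34, homologue of a small bacterial protein, stood at 22.1 and 24.0 FPKM in 143B sgNAT10, against 137 and 131 FPKM in 143B NC. The NC libraries were more than 5 times as high, and the log2 change was -2.49 ± 0.24 (adjusted p = 0.00095). In HOS the groups overlapped, at 74.8 and 78.5 FPKM in sgNAT10 and 78.0 and 84.2 FPKM in NC. MRPL34 was called lower in HOS with the length and GC correction (-0.38, adjusted p = 0.00021) and under median-ratio scaling (-0.31, adjusted p = 0.0053). It lies at chr19:17292609-17306843 and shares exon sequence with ABHD8 on the other strand, which stood at 4.72 and 3.14 FPKM in 143B sgNAT10, against 20.1 and 16.5 FPKM in 143B NC. Since the strand setting is not given, reads of this pair may be mixed.

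MRPL13, homologue of bacterial L13, fell in both lines. It stood at 2.26 and 4.09 FPKM in 143B sgNAT10, against 10.2 and 22.0 FPKM in 143B NC (log2 change -1.98 ± 0.43, adjusted p = 0.0084). The HOS levels of MRPL13 were 55.3 and 60.5 FPKM in sgNAT10, against 102 and 97.3 FPKM in NC (log2 change -0.77 ± 0.09, adjusted p = 1.4e-06). MRPL36, MRPS18B and MRPS28 also fell in both lines, 4 of 78 members in all, against 2.73% of genes tested in both lines. MRPL4, one of the proteins of the exit tunnel, fell to 95.1 and 82.8 FPKM in 143B sgNAT10, against 284 and 237 FPKM in 143B NC (log2 change -1.54 ± 0.24, adjusted p = 0.0027). In HOS its groups overlapped, at 105 and 97.7 FPKM in sgNAT10 and 81.9 and 104 FPKM in NC. MRPL4 was called higher in HOS when rescaled to a common sum (0.34, adjusted p = 0.0011), after quantile normalization (0.26, adjusted p = 0.032) and without NC replicate 2 (0.30, adjusted p = 0.0023). MRPL16, whose bacterial homologue sits by the entering tRNA, stood at 16.1 and 19.1 FPKM in 143B sgNAT10, against 37.0 and 40.7 FPKM in 143B NC (log2 change -1.10 ± 0.26, adjusted p = 0.011). That call was lost under median-ratio scaling (0.0685) and without sgNAT10 replicate 1 (0.0955). MRPL16 was not called in HOS.

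MRPL49 and MRPL10 fell in 143B and rose in HOS. MRPL49, a mitochondria-specific protein, stood at 21.4 and 23.6 FPKM in 143B sgNAT10, against 69.3 and 64.1 FPKM in 143B NC, and at 36.8 and 34.0 FPKM in HOS sgNAT10, against 19.2 and 20.9 FPKM in HOS NC. Its log2 change was -1.53 ± 0.24 in 143B (adjusted p = 0.0028) and 0.79 ± 0.10 in HOS (adjusted p = 2.6e-06), the largest rise of a member in HOS. Its gene, at chr11:65122183-65127371, shares exon sequence on the other strand with FAU, which moved the other way in 143B, at 3616 and 2863 FPKM in sgNAT10, against 1722 and 1194 FPKM in NC. MRPL10, which anchors the MRPL12 stalk, stood at 36.6 and 34.3 FPKM in 143B sgNAT10, against 70.6 and 68.9 FPKM in 143B NC. Its HOS levels were 42.9 and 42.9 FPKM in sgNAT10, against 24.0 and 27.6 FPKM in NC. Its log2 change was -0.96 ± 0.24 in 143B (adjusted p = 0.013) and 0.71 ± 0.10 in HOS (adjusted p = 7.2e-06). The 143B call of MRPL10 was lost under median-ratio scaling (0.172), quantile normalization (0.0615) and the length and GC correction (0.0822), and without sgNAT10 replicate 1 (0.0584) or 2 (0.0822).

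Beyond the genes above, the large subunit genes that fell most in HOS were MRPL11, MRPL46, MRPL22 and MRPL21. MRPL11, at the base of the stalk, stood at 128 and 125 FPKM in HOS sgNAT10, against 244 and 262 FPKM in HOS NC (log2 change -1.0 ± 0.08, adjusted p = 5.5e-08). MRPL46, a mitochondria-specific protein, stood at 48.4 and 47.6 FPKM in HOS sgNAT10, against 90.1 and 96.8 FPKM in HOS NC (log2 change -0.95 ± 0.09, adjusted p = 1.6e-07). In both genes the sgNAT10 libraries lay far below the NC libraries, with a narrow spread in each group. MRPL22, a protein of the exit tunnel, stood at 13.5 and 15.8 FPKM in HOS sgNAT10, against 28.9 and 27.5 FPKM in HOS NC (log2 change -0.90 ± 0.10, adjusted p = 1.3e-06). MRPL21, the most abundant member in HOS NC, stood at 156 and 157 FPKM in HOS sgNAT10, against 286 and 289 FPKM in HOS NC (log2 change -0.87 ± 0.08, adjusted p = 1.5e-07). In 143B only MRPL46 of these was called, at 82.7 and 87.7 FPKM in sgNAT10, against 47.2 and 42.9 FPKM in NC (log2 change 0.90 ± 0.24, adjusted p = 0.016). That call was lost when rescaled to a common sum (0.0569) and without sgNAT10 replicate 1 (0.0758) or 2 (0.103).

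Among small subunit genes, MRPS18C, 1 of the paralogues of bacterial S18, had the clearest opposite movement. It stood at 59.8 and 78.4 FPKM in 143B sgNAT10, against 24.9 and 23.7 FPKM in 143B NC, and at 34.7 and 38.3 FPKM in HOS sgNAT10, against 77.9 and 74.7 FPKM in HOS NC. Neither line showed overlap, and the log2 change was 1.46 ± 0.26 in 143B (adjusted p = 0.0037) and -1.05 ± 0.09 in HOS (adjusted p = 8.7e-08), the largest fall of a member in HOS. Because it has paralogues, reads may have been split between them. MRPS2 and MRPS6, both with bacterial homologues, fell in 143B and rose in HOS. MRPS2 stood at 122 and 100.2 FPKM in 143B sgNAT10, against 225 and 218 FPKM in 143B NC, and at 81.5 and 85.7 FPKM in HOS sgNAT10, against 50.9 and 63.0 FPKM in HOS NC. Its log2 change was -1.0 ± 0.24 in 143B (adjusted p = 0.012) and 0.55 ± 0.10 in HOS (adjusted p = 0.00014). The 143B call of MRPS2 was lost under median-ratio scaling (0.204), the length and GC correction (0.203, and 0.118 with the replicate block) and without sgNAT10 replicate 2 (0.109). MRPS6 stood at 16.8 and 23.9 FPKM in 143B sgNAT10, against 44.3 and 53.9 FPKM in 143B NC (log2 change -1.24 ± 0.28, adjusted p = 0.0093). In HOS MRPS6 stood at 101 and 114 FPKM in sgNAT10, against 87.2 and 92.8 FPKM in NC (0.26 ± 0.09, adjusted p = 0.018). The 143B call of MRPS6 was lost without sgNAT10 replicate 1 (0.0731), and its HOS call under median-ratio scaling (0.802) and without sgNAT10 replicate 1 (0.0513) or 2 (0.356).

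The other small subunit genes that rose in HOS included MRPS16, MRPS27 and MRPS12. MRPS16, homologue of a bacterial protein needed to assemble the small subunit, stood at 32.4 and 32.0 FPKM in HOS sgNAT10, against 21.7 and 22.6 FPKM in HOS NC (log2 change 0.52 ± 0.09, adjusted p = 0.00012). MRPS27, an RNA-binding protein of the pentatricopeptide repeat class, stood at 45.2 and 46.4 FPKM in HOS sgNAT10, against 31.8 and 34.9 FPKM in HOS NC (0.45 ± 0.09, adjusted p = 4e-04). MRPS12, the protein of the decoding centre, stood at 41.4 and 43.5 FPKM in HOS sgNAT10, against 29.5 and 36.5 FPKM in HOS NC (0.36 ± 0.10, adjusted p = 0.0054). The sgNAT10 libraries lay above the NC libraries for all 3 genes in HOS, and none of them was called in 143B. The call of MRPS12 was lost under median-ratio scaling (0.242), the length and GC correction (0.218) and without sgNAT10 replicate 2 (0.0933), and its exons overlap those of SARS2.

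Symbols and positions in the ribosome part ways for a few members. MRPS18A and MRPS30 sit in the large subunit. MRPS18A stood at 50.5 and 50.8 FPKM in HOS sgNAT10, against 77.9 and 84.3 FPKM in HOS NC (log2 change -0.67, adjusted p = 5.7e-06), and MRPS30 at 70.3 and 67.0 FPKM in HOS sgNAT10, against 90.2 and 86.6 FPKM in HOS NC (-0.36, adjusted p = 0.0015). The call of MRPS30 was lost when rescaled to a common sum (0.135), with the length and GC correction (0.452) and without sgNAT10 replicate 2 (0.0678). MRPS36, since assigned to the alpha-ketoglutarate dehydrogenase complex, stood at 12.1 and 12.8 FPKM in HOS sgNAT10, against 19.9 and 18.3 FPKM in HOS NC (-0.58, adjusted p = 9.3e-05), and its groups overlapped in 143B. It was among the 3 members with the lowest mean, with MRPS14, homologue of bacterial S14, and MRPL19, both of which also fell in HOS (-0.58, adjusted p = 0.00014, and -0.26, adjusted p = 0.035). The call of MRPL19 was lost with the replicate block (adjusted p = 0.0737), after rescaling to a common sum (0.636), and without sgNAT10 replicate 1 (0.299), sgNAT10 replicate 2 (0.174) or NC replicate 1 (0.0606). At the other end MRPS24 was the most abundant member in HOS sgNAT10 and was called in neither line. It stood at 453 and 408 FPKM in 143B sgNAT10, against 421 and 305 FPKM in 143B NC, and at 172 and 181 FPKM in HOS sgNAT10, against 149 and 170 FPKM in HOS NC.

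**Figure D3:**
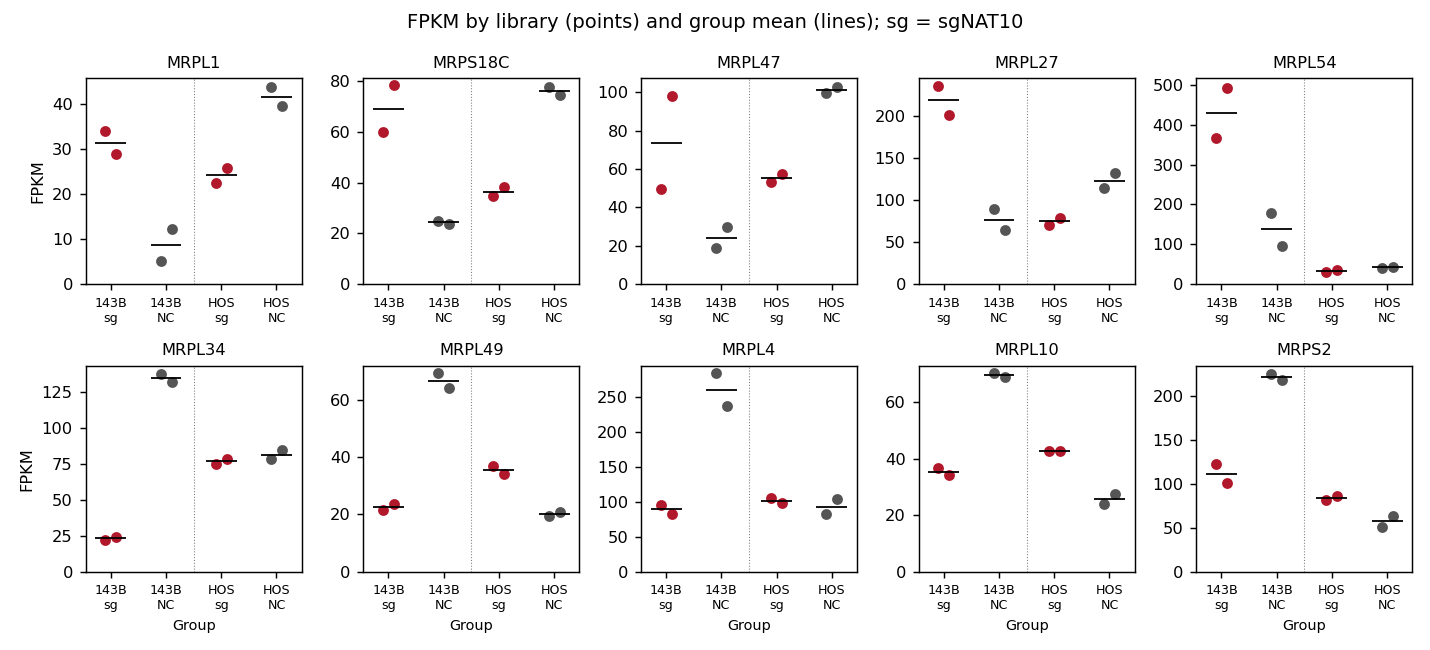
FPKM of each library (points) and the mean of a group (lines) for members with the largest differences between lines, sgNAT10 left of NC within each line; levels are not comparable across lines because the tables were normalized separately. MRPS18C stands at 59.8 and 78.4 FPKM in 143B sgNAT10, above 24.9 and 23.7 in 143B NC, and the order is turned round in HOS.

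Set side by side, 14 of the 78 members (17.9%) rose in 143B and fell in HOS, against 3.63% of all genes tested in both. They were MRPL1, MRPL14, MRPL18, MRPL24, MRPL27, MRPL28, MRPL40, MRPL46, MRPL47, MRPL54, MRPL57, MRPS10, MRPS18C and MRPS21. Only 4 members (5.13%) fell in 143B and rose in HOS, against 15.7% of all genes: MRPL10, MRPL49, MRPS2 and MRPS6. Another 35 fell in HOS without a call in 143B, and 8 were called in neither line. The share of all genes in these classes was not counted. Of all genes tested, 38.3% were called in either direction in 143B and 68.5% in HOS. The SE of a member's change had a median of 0.28 in 143B and 0.09 in HOS, so that a change of a given size passed the test less readily in 143B, and a missing call there does not show that a member was level. The difference itself was tested in a joint fit, as the signed change in 143B minus that in HOS. A negative value can thus stand for a deeper fall in 143B. The difference was called positive for 33 members (42.3%) and negative for 9 (11.5%), where 12.9% and 36.2% of 10655 genes were. With libraries rescaled to a common sum these counts were 17 and 17 (21.8% each way), where 5.84% and 48.7% of all genes were called. With the sum taken without ribosomal protein and MTRNR2L genes they were 30 and 10, where 11.5% and 35.9% of all genes were called. Without 1 HOS library they were 20 and 7 (sgNAT10 replicate 1), 21 and 6 (sgNAT10 replicate 2), 22 and 7 (NC replicate 1) or 20 and 7 (NC replicate 2), where 7.89% to 8.63% of all genes were called in the first direction. The largest such differences were those of MRPL1, at 2.62 ± 0.46 (adjusted p = 0.0017), and MRPS18C, at 2.50 ± 0.26 (adjusted p = 0.00016). In the other direction, the largest were those of MRPL34, at -2.41 ± 0.22 (adjusted p = 0.00012), and MRPL49, at -2.32 ± 0.24 (adjusted p = 0.00016).

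**Figure D4:**
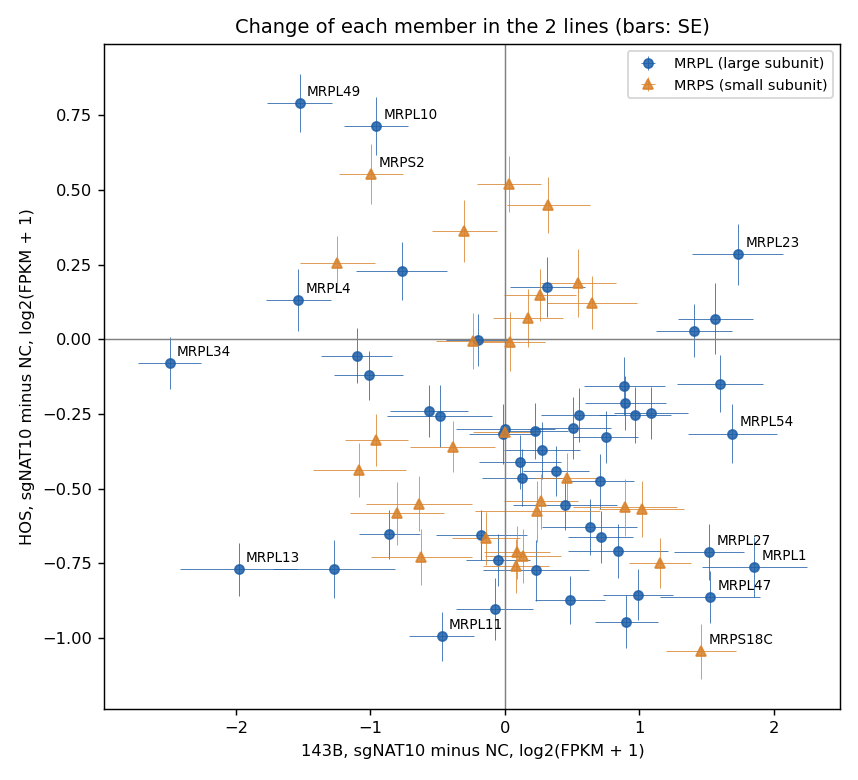
Each point is 1 member, with its log2(FPKM + 1) change in 143B (x axis) against that in HOS (y axis), sgNAT10 minus NC, with SE bars, and MRPL and MRPS genes in different colours. The 14 members that rose in 143B and fell in HOS stand at the lower right, and the 4 that did the opposite at the upper left.

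MRPL genes made up 16 of the 19 members that rose in 143B. Of 49 MRPL genes, 16 rose and 8 fell in 143B (32.7% and 16.3%), with a median log2 change of 0.32. Of 29 MRPS genes 3 rose and 4 fell there (10.3% and 13.8%), with a median of 0.08. Of all genes 12.9% rose and 25.4% fell in 143B. In HOS 4 MRPL genes rose and 35 fell (8.16% and 71.4%, median -0.32), and 5 MRPS genes rose and 18 fell (17.2% and 62.1%, median -0.44). Of all genes 45.5% rose and 23.0% fell in HOS. The MRPL median exceeded the MRPS median by 0.23 in 143B, where the replicates varied by an SD of 0.11, and by 0.12 in HOS, where they varied by 0.055. In HOS the calls went the other way, since a larger share of MRPL than of MRPS genes fell and a smaller share rose. Grouping by position in the ribosome instead (51 large, 26 small) left the 143B counts at 16 and 8 for the large and 3 and 4 for the small subunit, and gave 4 and 37, and 5 and 15, in HOS. The HOS gap was then 0.0609, and it was -0.0203 after the length and GC correction. The 2-against-2 design cannot bring the exact permutation p of a single value below 0.333, so no p is given for the gaps.

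In summed FPKM the large subunit genes stood at 4.93 and 4.96 times the small subunit genes in 143B sgNAT10, against 3.06 and 2.57 times in 143B NC. In HOS the ratio was 1.98 and 1.98 in sgNAT10, against 2.19 and 2.20 in NC. The groups did not overlap in either line, with sgNAT10 higher in 143B and lower in HOS. The ratio was also taken without the 5 members highest in mean FPKM over all 8 libraries (MRPL23, MRPL41, MRPL12, MRPL21 and MRPS24). It was then 3.19 and 3.16 in 143B sgNAT10, against 2.35 and 2.07 in 143B NC. In HOS it was 1.84 and 1.84 in sgNAT10, against 2.01 and 2.0 in NC. The 5 highest members of each single library, which can be other genes, held 45.6% and 44.6% of the members' FPKM in 143B sgNAT10. They held 33.4% and 27.2% in 143B NC, 15.8% and 16.0% in HOS sgNAT10, and 18.2% and 18.0% in HOS NC. All 78 together made up 1.70 ± 0.06% of the listed FPKM in 143B sgNAT10 and 1.39 ± 0.13% in 143B NC, and 1.02 ± 0.018% in HOS sgNAT10 and 1.13 ± 0.022% in HOS NC (SD, n = 2 each).

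**Figure D5:**
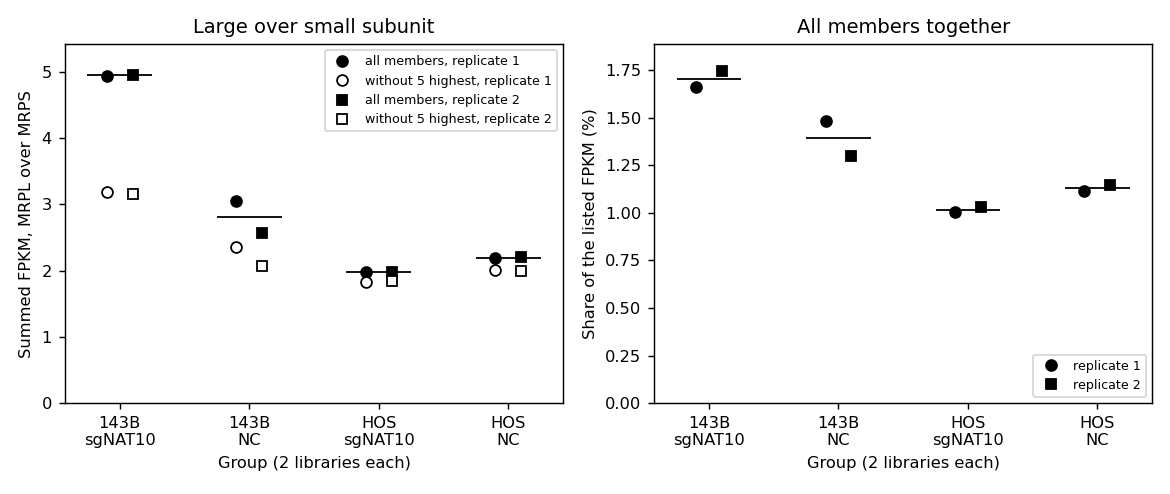
Left, the summed FPKM of MRPL genes over that of MRPS genes in each library, with all members and without the 5 highest in mean FPKM over all 8 libraries. Right, the share of the listed FPKM taken by all 78 members. In both, sgNAT10 stands left of NC within each line, with horizontal lines at the group means of all members. The ratio is 4.93 and 4.96 in 143B sgNAT10, above 3.06 and 2.57 in 143B NC, and 1.98 and 1.98 in HOS sgNAT10, below 2.19 and 2.20 in HOS NC.

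By ancestry, of 46 members with a bacterial homologue, 13 rose and 9 fell in 143B (28.3% and 19.6%, median 0.18). In HOS 6 of them rose and 33 fell (13.0% and 71.7%, median -0.44). Of 31 mitochondria-specific members 6 rose and 3 fell in 143B (19.4% and 9.68%, median 0.17). In HOS 3 of these rose and 19 fell (9.68% and 61.3%, median -0.32). The classes were assigned by hand. MRPS18A and MRPS18B were counted as mitochondria-specific, and their paralogue MRPS18C among members with a bacterial homologue. Of all genes 12.9% rose and 25.4% fell in 143B, and 45.5% rose and 23.0% fell in HOS. Base composition varied with the HOS change: the median transcript GC content was 55.6% for the 9 members that rose, 48.0% for the 53 that fell and 59.0% for the 16 not called. Across the 78 members, which share the same libraries, the change correlated with GC content at r = 0.46 (rho = 0.49) in HOS, where r was 0.30 over all genes, and at r = 0.08 in 143B, where it was -0.36 over all genes. The part of GC content in these changes was not tested beyond the length and GC correction. Under that correction 32 members rose and 18 fell in 143B, where 26.8% of all genes rose and 28.6% fell. In HOS 7 members rose and 63 fell, where 32.6% of all genes rose and 33.9% fell. The members' median then stood apart from that of all genes by 0.46 in 143B and -0.46 in HOS. In the main fit these values were 0.45 and -0.54.

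Other genes of mitochondrial translation were counted in the same way. Of all genes, 12.9% rose and 25.4% fell in 143B, and 45.5% rose and 23.0% fell in HOS. Of the 5 mitochondrial ribosomal proteins under other names, 2 rose and none fell in 143B, and all 5 fell in HOS. The largest change among them was that of GADD45GIP1, a large subunit protein, at 1717 and 1800 FPKM in 143B sgNAT10, against 594 and 400 FPKM in 143B NC (log2 change 1.85, adjusted p = 0.0030). In HOS GADD45GIP1 stood at 152 and 146 FPKM in sgNAT10, against 196 and 237 FPKM in NC (-0.53, adjusted p = 1e-04). DAP3, a GTP-binding protein of the small subunit, fell in HOS at 28.3 and 31.4 FPKM in sgNAT10, against 45.3 and 42.4 FPKM in NC. Of 16 translation factors 3 rose and 1 fell in 143B, and 4 rose and 10 fell in HOS. SLIRP, the partner of LRPPRC in stabilising mitochondrial messages, stood at 933 and 1042 FPKM in 143B sgNAT10, against 229 and 264 FPKM in 143B NC (2.0, adjusted p = 0.0015), and at 321 and 359 FPKM in HOS sgNAT10, against 614 and 623 FPKM in HOS NC (-0.86). OXA1L, the insertase that receives nascent chains, fell in 143B (log2 change -1.95), and the initiation factor MTIF3 fell in HOS (-0.90). The elongation factor GUF1 rose in HOS (0.43).

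Of 25 assembly factors 2 rose and 5 fell in 143B, and 9 rose and 7 fell in HOS. NSUN4, a methyltransferase of the small subunit RNA, rose in both lines (1.16 in 143B and 0.80 in HOS), while MTERF4, its partner, fell in HOS (-0.64). The endoribonuclease YBEY rose in 143B (1.42) and the GTPase NOA1 fell there (-1.57). Of 17 mitochondrial aminoacyl-tRNA synthetases none rose and 7 fell (41.2%) in 143B, and 7 rose (41.2%) and 2 fell (11.8%) in HOS. Among these IARS2, which charges isoleucine tRNA, fell in 143B (-2.07), MARS2 rose in HOS (0.59) and RARS2 fell there (-0.91). Of 17 genes of mitochondrial transcription and RNA processing 1 rose and 3 fell in 143B (5.88% and 17.6%). In HOS 1 of them rose and 7 fell (5.88% and 41.2%). HSD17B10 rose in 143B (0.92), and ELAC2, which trims tRNA ends, fell there (-1.80). SUPV3L1 rose in HOS (0.24) and TRMT10C fell there (-0.79).

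Of 9 regulators of mitochondrial biogenesis none rose and 4 fell in 143B (44.4%, beside 25.4% of all genes). In HOS 5 rose and 1 fell (55.6% and 11.1%, beside 45.5% and 23.0% of all genes). MYC stood at 0.21 and 0.43 FPKM in 143B sgNAT10, against 3.65 and 5.54 FPKM in 143B NC (log2 change -2.07), and at 5.68 and 4.59 FPKM in HOS sgNAT10, against 1.37 and 1.39 FPKM in HOS NC (1.36). The factors of the 3 motifs counted above did not move alike. GABPA, the ETS factor, fell in HOS (-0.32) and was not called in 143B (-0.37, limma adjusted p = 0.44). YY1 rose in HOS (0.97, adjusted p = 1.9e-07) and was not called in 143B (-0.34, adjusted p = 0.47). NRF1 was called in neither line. Whether these factors act on the members was not tested. Of 24 import genes 7 rose (29.2%, beside 12.9% of all genes) and none fell in 143B. In HOS 5 of them rose and 13 fell (20.8% and 54.2%). TIMM8B, a chaperone of the intermembrane space, stood at 271 and 350 FPKM in 143B sgNAT10, against 64.2 and 45.0 FPKM in 143B NC (2.50), and at 33.4 and 32.9 FPKM in HOS sgNAT10, against 68.6 and 67.2 FPKM in HOS NC (-1.01). TIMM22, the channel of the carrier translocase, rose in HOS (0.70).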

How the data were processed

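Per the labels, polyadenylated RNA of each line was sequenced on the BGISeq-500 platform. Values were deposited by the authors as FPKM, that is fragments scaled to transcript length and to the mapped fragments of the library, 1 table per line. Bowtie2, RSEM, DESeq2 and GRCh38 are named without roles in the submitters' processing notes, and the annotation version was not given in the sources used here. Because the tables hold no counts, no count test was run. From the deposited values, log2(FPKM + 1) was tested in genes reaching 1 FPKM in 2 or more libraries of that line, with limma 3.58.1 in R 4.3.3 (trended variance prior; two-sided; p adjusted over all genes tested by the Benjamini-Hochberg method; threshold 0.05), as sgNAT10 minus NC. Lines were fitted separately. A joint fit over genes passing in both tables gave the change in 143B minus that in HOS. Fold changes on this scale understate those of low genes. Tables were made with Python 3.11.15, pandas 2.3.3 and numpy 2.4.6, and the fits were tested on simulated data. GENCODE gave positions on GRCh38 and the transcript lengths and GC contents.

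Members, lists and tests were chosen with earlier results of these data known. Named were NAT10, the 5 members highest and 3 lowest in mean FPKM, the 6 largest rises and falls per line among members past the threshold whose libraries did not overlap, the 5 members whose changes differed most between lines, either way, MRPS18A, MRPS30 and MRPS36, and the largest rise and fall of each related list. Of the mesenchymal markers, none rose and 4 of 5 tested fell in 143B, and 4 of 8 rose and none fell in HOS. Of the other-cell markers, 1 of 6 rose and 2 fell in 143B, and 2 of 6 rose and 1 fell in HOS. Alternatives changed the pseudocount, filter, scaling, moderation and spread, corrected for length and GC, used the replicate number as a block, or left out each library.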

Additional observations from a re-analysis of the deposited data

Results flagged for a closer look

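The signed difference, change in 143B minus change in HOS, was tested in a joint limma fit. It was called positive for 33 members and negative for 9. A negative value can stand for a deeper fall in 143B, as for MRPL34 (-2.49 in 143B and -0.08 in HOS). The largest positive differences (143B minus HOS, log2 scale) were 2.62 for MRPL1, 2.50 for MRPS18C, 2.39 ± 0.45 for MRPL47 (SE, adjusted p = 0.0023), 2.23 ± 0.29 for MRPL27 (adjusted p = 0.00039) and 2.01 ± 0.40 for MRPL54 (adjusted p = 0.0030). The largest negative differences were -2.41 for MRPL34, -2.32 for MRPL49, -1.67 ± 0.23 for MRPL10 (adjusted p = 0.00055), -1.67 ± 0.26 for MRPL4 (adjusted p = 0.00099) and -1.55 ± 0.25 for MRPS2 (adjusted p = 0.0011). NAT10 itself differed by -1.41 (adjusted p = 0.0036). Each of these 10 members and NAT10 kept its side of the threshold in every setting run, 231 of 231 values.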

How the results depend on the processing

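Rescaling to a common sum of FPKM gave 11 members higher in 143B in place of 19, 19 higher in HOS in place of 9, and differences between lines in 17 members each way in place of 33 and 9, while the share of all genes called higher was 7.49% in place of 12.9% in 143B, and 59.4% in place of 45.5% in HOS. Median-ratio scaling gave 6 lower in 143B in place of 12, where 22.1% of all genes were lower in place of 25.4%. It gave 5 higher in HOS, where 31.3% of all genes were higher in place of 45.5%. One spread over all 8 libraries gave 2 higher and 14 lower in HOS in place of 9 and 53. Of all genes 14.7% were then higher and 2.83% lower. The length and GC correction gave 32 higher in 143B, where 26.8% of all genes were higher in place of 12.9%. The gap between MRPL and MRPS medians in HOS, 0.12, was 0.0397 after quantile normalization, -0.0203 after the length and GC correction and 0.0609 by position in the ribosome. MRPL34 in HOS, not called, turned to 0.13 (common sum) and 0.019 (quantiles), and MRPL4 in HOS, not called, to -0.0975 (median ratio), -0.0901 (length and GC, with or without the block) and -0.0421 (without NC replicate 1; 0.303 without NC replicate 2). The cause of the gene-level shifts was not tested. Other called changes of named genes kept their direction.

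With 1 library left out, members higher and lower ran from 10 to 18 and 7 to 15 in 143B, from 5 to 14 and 38 to 54 in HOS, and from 20 to 39 and 6 to 12 for the difference, and the subunit gap from 0.13 to 0.37 in 143B and 0.051 to 0.17 in HOS.

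Replicate numbers are not said to pair libraries, and deviations of libraries with the same number correlated at 0.605 in 143B and -0.107 in HOS. With the number as a replicate block, 31 were higher and 21 lower in 143B, where 24.0% and 43.0% of all genes were. With the length and GC correction besides, the counts were 36 and 20, where 30.3% and 32.8% of all genes were called. In HOS the block gave 8 higher and 48 lower, where 44.0% and 21.9% of all genes were. The signed difference between lines was then called positive for 45 members and negative for 14, where 21.3% and 47.7% of all genes were. It was positive for 47 members under median-ratio scaling (25.1% of all genes) and for 47 with the length and GC correction (27.6%). The crossed pairing in HOS, chosen after seeing the data, gave 9 and 53, where 46.8% and 24.0% of all genes were called.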

Other observations

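Of the 78 members, 17 (21.8%) have a protein-coding gene on the other strand whose start lies within 1000 bases of theirs in a head-to-head arrangement, against 10.2% of 10498 genes. Some of these pairs moved together and others apart. MRPL46 and MRPS11, a small subunit gene, start 34 bases apart and both fell in HOS, at -0.95 and -0.76 on the log2 scale, while in 143B only MRPL46 was called. MRPL47 and NDUFB5, a subunit of respiratory complex I, start 36 bases apart. Both fell in HOS, at -0.86 and -0.52 on the log2 scale, but in 143B MRPL47 changed by 1.53 and NDUFB5 by -1.44 (adjusted p = 0.018). Exons of 41 of the 78 members (52.6%) overlap those of another gene, so part of their reads could be shared.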
